A study of Mus musculus with 12 samples.

Results

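The genes described here are 40 cell cycle and proliferation genes, chosen by name: 15 that act in G1/S control and DNA replication (Ccnd1, Ccne1, E2f1, Cdc6, Cdt1, Mcm2 to Mcm7, Pcna, Rrm1, Rrm2 and Tyms) and 25 that act in G2 and mitosis (Mki67, Top2a, Ccna2, Ccnb1, Ccnb2, Cdc20, Bub1, Bub1b, Aurka, Aurkb, Plk1, Tpx2, Kif11, Kif20a, Kif23, Birc5, Ube2c, Cenpa, Cenpe, Cenpf, Nusap1, Prc1, Ttk, Mad2l1 and Foxm1). All 40 were found on the arrays, through 63 probes, among 20689 genes tested. The brightest probe of each of the 40 was well above background on all 8 arrays whose scanner files were used, so no member was lost to the filter on dim probes.

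The mice were adult, wild type and of strain C57BL/6J, and RNA of the whole forestomach was taken in 3 groups of 4 samples. Controls were given supersaccharin with 0% alcohol, the 4-week group was given 20% alcohol in supersaccharin, and the 40-week group was given 15% alcohol for 40 weeks, with no word in the labels on saccharin. Each array set forestomach RNA in Cy5 against a commercial universal mouse reference RNA in Cy3, with the same dyes throughout, and every level below is the log2 ratio of the former to the latter. A negative ratio means less transcript in forestomach than in the reference pool. The labels name no controls kept for 40 weeks. Age, alcohol dose, duration, vehicle and array processing therefore cannot be told apart at 40 weeks. The control and 4-week arrays were also scanned on different days, so day and treatment cannot be told apart either.

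Cells enter the cycle when cyclin D and cyclin E kinases release E2F transcription factors, which switch on the genes that license and copy DNA, among them the MCM helicase and the enzymes that make deoxynucleotides. Genes of G2 and mitosis follow, many of them under the DREAM and B-MYB/FOXM1 complexes, which act through the CHR promoter element. Their promoters often hold CCAAT elements too. In the squamous epithelium of the forestomach, division is normally found mostly in the basal layer, and cells that leave it stop cycling and keratinise. In RNA from a whole tissue, fewer cycling cells and less transcript per cycling cell cannot be told apart.

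The roles differed in their promoters, which are shown because the members of a role are usually discussed as co-regulated. RefSeq promoter windows of 300 bases (250 before the annotated start, build GRCm38.p6) were at hand for 33 members. A member was counted once if any of its windows held a match, while the shares of all windows are counted window by window. A CHR element (TTTGAA or TTCGAA, both strands) lay in the window of 15 of 20 mitosis genes and 2 of 13 replication genes, against 19.2% of all 32851 windows. CCAAT (both strands) lay in 17 of 20 and 8 of 13, against 37.4% of all windows. An E2F element (TTTCGCGC, TTTGGCGC, TTTCCCGC or TTTGCCGC, both strands, where neighbouring matches can overlap) lay in 0 of 20 mitosis genes and 6 of 13 replication genes, against 2.26% of all windows. The E2F matches were in Cdc6, Cdt1, Mcm3, Mcm5, Mcm6 and Mcm7. The stretches below lie upstream of the annotated start, with matches to these elements in capitals. Cdc20, Kif11 and Mki67 carry CHR and CCAAT, Cdc6 and Mcm6 carry E2F, and Mad2l1, the 1 member called lower in both scalings in a comparison below, has none of the letters searched in its window.
Cdc20, chr4:118437344-118437423, minus strand: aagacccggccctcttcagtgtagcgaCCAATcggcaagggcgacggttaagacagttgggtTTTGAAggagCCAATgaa
Kif11, chr19:37376302-37376381, plus strand: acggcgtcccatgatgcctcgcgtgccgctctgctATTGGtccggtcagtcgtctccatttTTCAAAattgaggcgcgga
Mki67, chr7:135716465-135716574, minus strand: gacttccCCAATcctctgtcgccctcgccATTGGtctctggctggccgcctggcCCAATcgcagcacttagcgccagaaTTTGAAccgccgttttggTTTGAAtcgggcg
Cdc6, chr11:98907991-98908070, plus strand: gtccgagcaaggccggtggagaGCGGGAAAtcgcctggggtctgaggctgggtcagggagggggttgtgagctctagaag
Mcm6, chr1:128359706-128359825, minus strand: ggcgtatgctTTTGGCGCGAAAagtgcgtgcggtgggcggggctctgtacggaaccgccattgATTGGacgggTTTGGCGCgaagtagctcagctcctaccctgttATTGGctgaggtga
Mad2l1, chr6:66535121-66535220, plus strand: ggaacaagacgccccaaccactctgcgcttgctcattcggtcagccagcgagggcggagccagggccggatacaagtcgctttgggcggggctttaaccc

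The probes also matter, because some members were read by several that did not give the same value. The first 30 bases of 60-base probes are shown for Bub1, Mki67 and Mad2l1, with positions on build mm9 as the files give them.
Bub1 probe A_52_P259126, chr2:127626326-127626385, minus strand: ttactttccacttccatgtctcatctgtca
Bub1 probe A_51_P123405, chr2:127626988-127627047, minus strand: aacaagattaagaccttgcgtaataggcta
Mki67 probe A_51_P253803, chr7:142881591-142881650, minus strand: atactactgctactgcctgagtttaaggaa
Mki67 probe A_51_P253808, chr7:142886012-142886071, minus strand: tgcttccagcaagaggtatgtatcacctga
Mad2l1 probe A_51_P230878, chr6:66489869-66489928, plus strand: cgctcatttacgaccacaatccataaagtg
Mad2l1 probe A_51_P230873, chr6:66488986-66489045, plus strand: catacaggatgaaattcgctcagtgattag
Both Bub1 probes lie on chromosome 2 within the same locus, yet the first, which is brighter and represents the gene below, had a mean ratio of 0.60 in the controls and the second -4.93. Bub1, a spindle checkpoint kinase, was the only member with a ratio above 0 in the controls, and that holds for the first probe only.

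Facts of the arrays bear on what follows. The standard deviation of the log2 ratios over genes tested was 1.69 to 1.92 on control arrays, 1.65 to 1.73 on 4-week arrays and 1.16 to 1.24 on 40-week arrays. The deposited 40-week ratios were thus less spread as a whole, though not for every gene. All comparisons were therefore made on the values as deposited and again after quantile normalisation, which gives all 12 columns the same distribution. Scanner files were used for the control and 4-week arrays only. On 40-week replicates 3 and 4, the Y-linked gene Eif2s3y stood at -5.67 and -6.28, against 2.61 to 3.17 on the other 10 arrays, and Xist stood at 0.63 and 0.11, against -2.25 to -0.82. Control replicates 3 and 4 and 4-week replicate 2 were set apart in an earlier analysis for transcripts of other organs: the median ratio of 10 pancreatic and intestinal genes was 6.16, 2.25 and 2.35 there and 0.15 to 2.19 on the other control and 4-week arrays, and that of 12 glandular stomach genes was 2.26, 5.22 and 3.74 against 0.22 to 2.07. Results that change without these arrays are given both ways. The tissue carried its defining markers: the median ratio was 2.99 to 3.79 for 11 basal and 5.77 to 6.49 for 12 suprabasal keratinocyte genes in the controls.

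**Figure D1:**
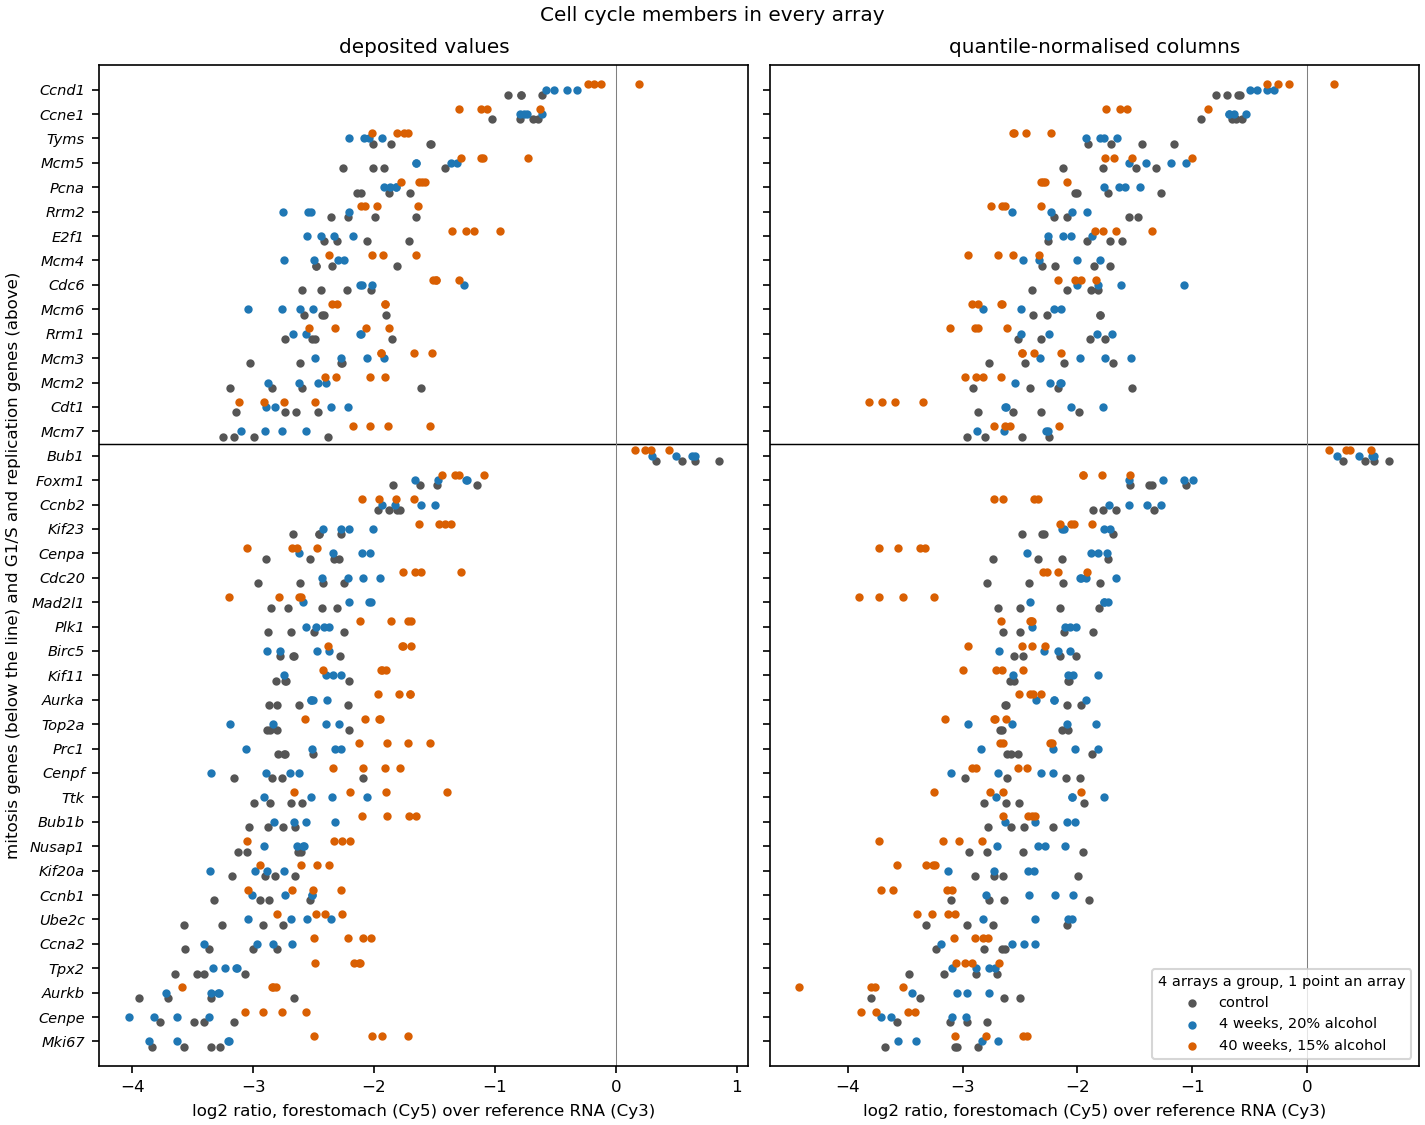
Log2 ratio of forestomach to reference RNA (x axis) for each of the 40 members (y axis), 1 point an array and 4 arrays a group, as deposited (left) and after quantile normalisation (right). On the left panel all 40-week points lie to the right of all control points for 16 of the 40 members, and on the right panel for 1, where they lie wholly to the left for 11; Mki67 40-week arrays sit between -2.49 and -1.72 as deposited.

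In the controls, the members stood far below the reference RNA. The median over the 40 genes ran from -2.79 to -2.25 on the control arrays, from -2.71 to -2.37 on the 4-week arrays and from -2.34 to -1.82 on the 40-week arrays as deposited. After quantile normalisation the same medians ran from -2.57 to -1.88, from -2.52 to -1.90 and from -2.92 to -2.48. The 40-week arrays thus stood mostly higher than the others in one scaling and mostly lower in the other, with overlap in both: 40-week replicate 2 lay below control replicate 1 as deposited, and 40-week replicate 1 lay above control replicate 2 after quantile normalisation. The means of both roles turned in the same way. The 4-array mean of the replication median was -2.22 in controls and -1.85 at 40 weeks as deposited, against -1.96 and -2.47 after quantile normalisation. For mitosis genes it was -2.74 and -2.07 as deposited, against -2.43 and -2.73.

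**Figure D2:**
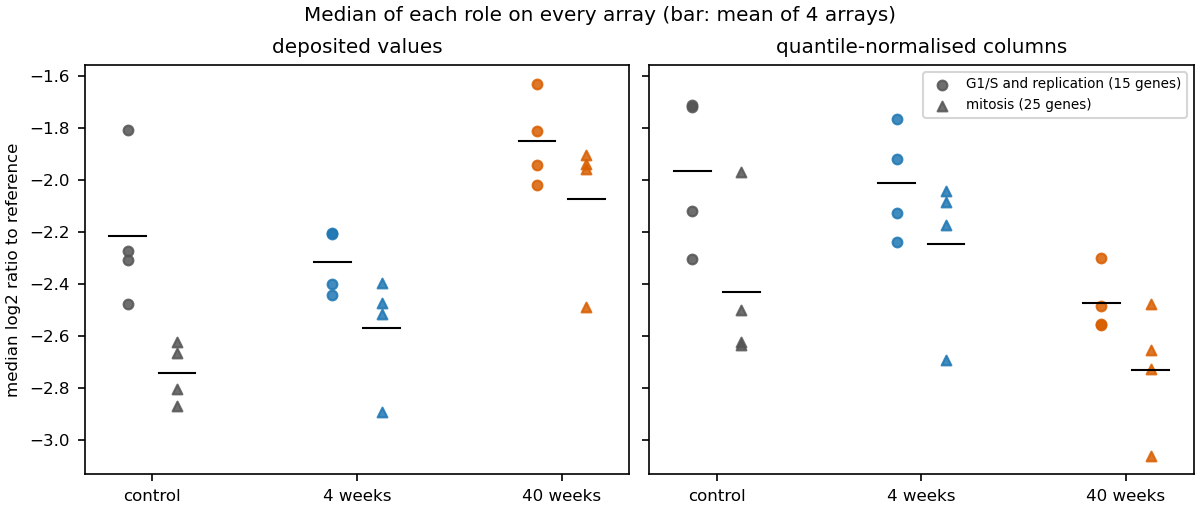
Median log2 ratio of the 15 G1/S and replication genes (circles) and the 25 mitosis genes (triangles) on each array, by group (x axis), as deposited (left) and after quantile normalisation (right); bars are means of 4 arrays. The control and 4-week medians overlap in both panels, and the 40-week means lie higher on the left and lower on the right, with single arrays that overlap the other groups.

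The 4-week comparison asked whether 20% alcohol for 4 weeks altered these genes. No member passed the test: 0 of 40 were called higher and 0 lower (limma, adjusted p under 0.05 over all genes), where 6.03% of all genes tested were called, 2.36% higher and 3.67% lower. At an unadjusted p under 0.05 there were 7 of 40 members, a smaller share than the 4874 of 20689 genes tested. The 7 were Ube2c, Cdc6, Cdc20 and Ccnd1 with positive and Rrm2, Mcm6 and Tyms with negative differences. The median difference over the members was 0.13, against -0.03 over all genes, and 29 of 40 were positive. Replication genes had a median of 0.06 and mitosis genes of 0.15. After quantile normalisation there were again 0 calls, with 0.875% of all genes called, and the median was 0.15. At an unadjusted p under 0.05 there were then 0 members, beside 3837 of 20689 genes. The standard errors of the members' differences were 0.12 to 0.28, and these arrays do not show that the groups were alike.

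The positive differences were led by Ube2c, the E2 enzyme of the anaphase-promoting complex. Ube2c stood at -3.57, -3.26, -2.76 and -2.92 on the control arrays and at -3.04, -2.36, -2.55 and -2.69 on the 4-week arrays. The groups overlap, and the difference was 0.47 ± 0.20 (SE) with an adjusted p of 0.191. Cdc6, which loads the MCM helicase onto origins, was at -2.22, -2.59, -2.44 and -2.03 in controls and at -2.12, -1.26, -2.02 and -2.10 at 4 weeks. The 4-week arrays include 1 high value that stands apart, and the difference was 0.45 ± 0.20 (SE) (adjusted p = 0.192). Mcm5, a helicase subunit, was at -1.41, -2.26, -2.01 and -1.92 and at -1.65, -1.66, -1.32 and -1.36. Here the highest control lay among the 4-week arrays, and the difference was 0.40 ± 0.19 (SE) (adjusted p = 0.217).

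The largest negative differences were in Rrm2, Mcm6 and Tyms. Rrm2, the regulated subunit of ribonucleotide reductase, stood at -1.65, -2.22, -1.99 and -2.35 in controls and at -2.76, -2.55, -2.52 and -2.21 at 4 weeks. The groups overlap, with a difference of -0.46 ± 0.18 (SE) (adjusted p = 0.147). Tyms, thymidylate synthase, was at -1.53, -2.01, -1.54 and -1.86 and at -2.04, -1.94, -2.20 and -2.09, a difference of -0.33 ± 0.14 (SE) (adjusted p = 0.163). Mcm6, another helicase subunit, was at -1.90, -2.58, -2.42 and -2.43 and at -3.04, -2.76, -2.61 and -2.51, a difference of -0.40 ± 0.18 (SE) (adjusted p = 0.208). None of these 6 differences passed the test in either scaling.

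None of the genes fixed as landmarks passed the test at 4 weeks. Mki67, whose protein marks cells in all active phases of the cycle, was at -3.28, -3.35, -3.57 and -3.84 in controls and at -3.86, -3.63, -3.21 and -3.20 at 4 weeks. The groups overlap across their whole range (difference 0.03 ± 0.21 (SE), adjusted p = 0.942). For Top2a, the topoisomerase that untangles replicated chromosomes, the arrays read -2.21, -2.89, -2.80 and -2.86 and -3.19, -2.83, -2.29 and -2.40. The difference of 0.01 ± 0.23 (SE) was smaller than the spread within either group (adjusted p = 0.983). Ccnb1, cyclin B1, read -3.33, -2.87, -2.53 and -2.94 and -3.01, -2.51, -2.52 and -2.73, with a difference of 0.23 ± 0.20 (SE) (adjusted p = 0.535). Pcna, the replication clamp, read -2.14, -2.11, -1.70 and -1.88 and -1.87, -1.92, -1.82 and -1.82, with a difference of 0.10 ± 0.12 (SE) (adjusted p = 0.649). The 4-week values fall inside the control range. Mcm2, a helicase subunit, read -1.62, -3.19, -2.84 and -2.59 and -2.40, -2.47, -2.62 and -2.87, where 1 control array exceeded all others (difference -0.03 ± 0.28 (SE), adjusted p = 0.963). E2f1, the transcription factor at the G1/S switch, read -1.71, -2.41, -2.31 and -2.06 and -2.17, -2.44, -2.33 and -2.56 (difference -0.25 ± 0.16 (SE), adjusted p = 0.381).

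Ccnd1, cyclin D1, which links growth signals to G1 entry, was the 1 member whose groups did not overlap at 4 weeks, where 5.45% of all genes lay wholly higher and 6.52% wholly lower. It stood at -0.78, -0.61, -0.78 and -0.89 in the controls and at -0.32, -0.58, -0.40 and -0.51 at 4 weeks. Every 4-week array lay above every control array, by a mean difference of 0.31 ± 0.12 (SE) that missed the threshold (adjusted p = 0.152). After quantile normalisation the difference was 0.28 ± 0.14 (SE) (adjusted p = 0.293), and it was again the 1 member without overlap, where 5.95% of all genes lay wholly higher and 4.75% wholly lower.

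Fits to each dye separate the forestomach signal from the reference signal. Members' median Cy5 signal above local background ran from 1317 to 2013 on control arrays and from 447 to 1184 on 4-week arrays. Over all genes tested these medians ran from 435 to 656 and from 192 to 565. For the members every 4-week array was dimmer in Cy5 than every control array, while over all genes the ranges overlap. In Cy3, the reference channel, every 4-week array was dimmer than every control array for the members and over all genes alike. There the members' medians were 11783 to 14914 at 4 weeks and 16157 to 18495 in controls. Over all genes tested they were 820 to 990 and 1006 to 1174. For the members the raw signal was thus lower at 4 weeks in both dyes. The cause of the lower raw signal was not tested, and the drop was not compared in size between the dyes. With Cy5 alone, after quantile normalisation between arrays, 0 of 40 members were called (0.348% of all genes), and the median difference was 0.08. Replication genes had a median of -0.18 in Cy5 and mitosis genes of 0.09. With Cy3 alone, which holds the same reference RNA on every array, the members' median was -0.11 and 8.54% of all genes were called. There Cenpa was called higher and Ccnb2 and Bub1b lower, by 0.54 ± 0.13 (SE), -0.28 ± 0.06 (SE) and -0.30 ± 0.06 (SE) (limma, adjusted p = 0.0364, 0.0259 and 0.0231). Over all genes the median difference in Cy3 was -0.03. The members' median in the ratios was 0.13, and the part of the reference channel in it was not tested. Cenpf lacked 1 array in these fits, because its spot was marked as an outlier on 1 of the 4-week arrays.

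**Figure D3:**
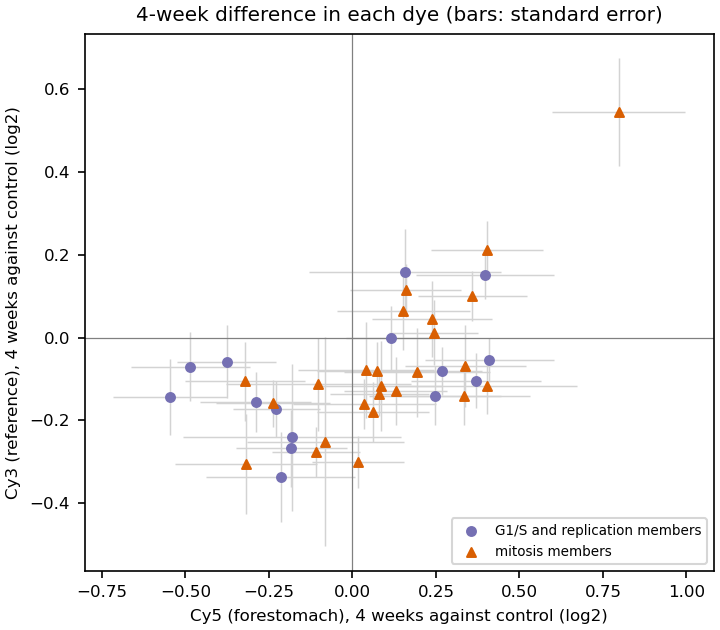
Difference between 4-week and control arrays in the Cy5 forestomach channel (x axis, log2) and the Cy3 reference channel (y axis, log2) for each member; bars are standard errors, circles G1/S and replication genes, triangles mitosis genes. Most members lie below 0 in Cy3, where the median is -0.11, and on both sides of 0 in Cy5; Cenpa lies apart at 0.80 in Cy5 and 0.54 in Cy3.

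The 40-week comparison against control asked whether longer exposure altered the same genes. As deposited, 21 of 40 members were called higher and 0 lower, where 42.5% of all genes were called, 18.7% higher and 23.8% lower. They were 6 of 15 replication genes (Ccnd1, E2f1, Cdc6, Mcm3, Mcm5 and Mcm7) and 15 of 25 mitosis genes (Mki67, Ccna2, Cdc20, Bub1b, Aurka, Plk1, Tpx2, Kif11, Kif23, Birc5, Ube2c, Cenpe, Cenpf, Prc1 and Ttk). The median difference was 0.60 over the members, 0.31 for replication and 0.63 for mitosis genes, against -0.08 over all genes. After quantile normalisation 1 member was called higher and 16 lower, where 38.1% of all genes were called, 17.6% higher and 20.5% lower. The 16 were 8 replication genes (Ccne1, Cdt1, Mcm4, Mcm6, Pcna, Rrm1, Rrm2 and Tyms) and 8 mitosis genes (Ccnb1, Ccnb2, Kif20a, Aurkb, Cenpa, Nusap1, Mad2l1 and Foxm1), and none of them had been called as deposited. The median was -0.40 over the members and -0.07 over all genes. Scaling the columns to equal spread instead also gave 1 higher and 16 lower. As deposited, all 40-week arrays lay above all controls for 16 members and below for 0, where 18.6% and 23.8% of all genes did so. After quantile normalisation they lay above for 1 and below for 11, where 17.1% and 19.6% did so. Ccnd1 was the only member called in both scalings, Mcm2, Top2a and Bub1 were called in neither, and 23 of 40 members changed sign between them. Calls in both scalings and changes of sign were not counted over all genes here. They are therefore not given as a trait of the members.

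The sign of the members' median at 40 weeks thus turned with the scaling, and the order of the members changed in part. Quantile normalisation moved the members' differences by a median of -0.93, between -1.19 and 0.15. Mki67 ranked first of 40 as deposited and second after quantile normalisation, and E2f1 ranked 8 and 3. Kif23 ranked 4 and 5, and no further member was among the first 5 in both. At the other end Mad2l1 ranked 38 and 40, Cenpa 37 and 39, and Cdt1 35 and 38. Bub1 and Ccnd1 moved most in rank, from 40 to 15 and from 18 to 1.

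**Figure D4:**
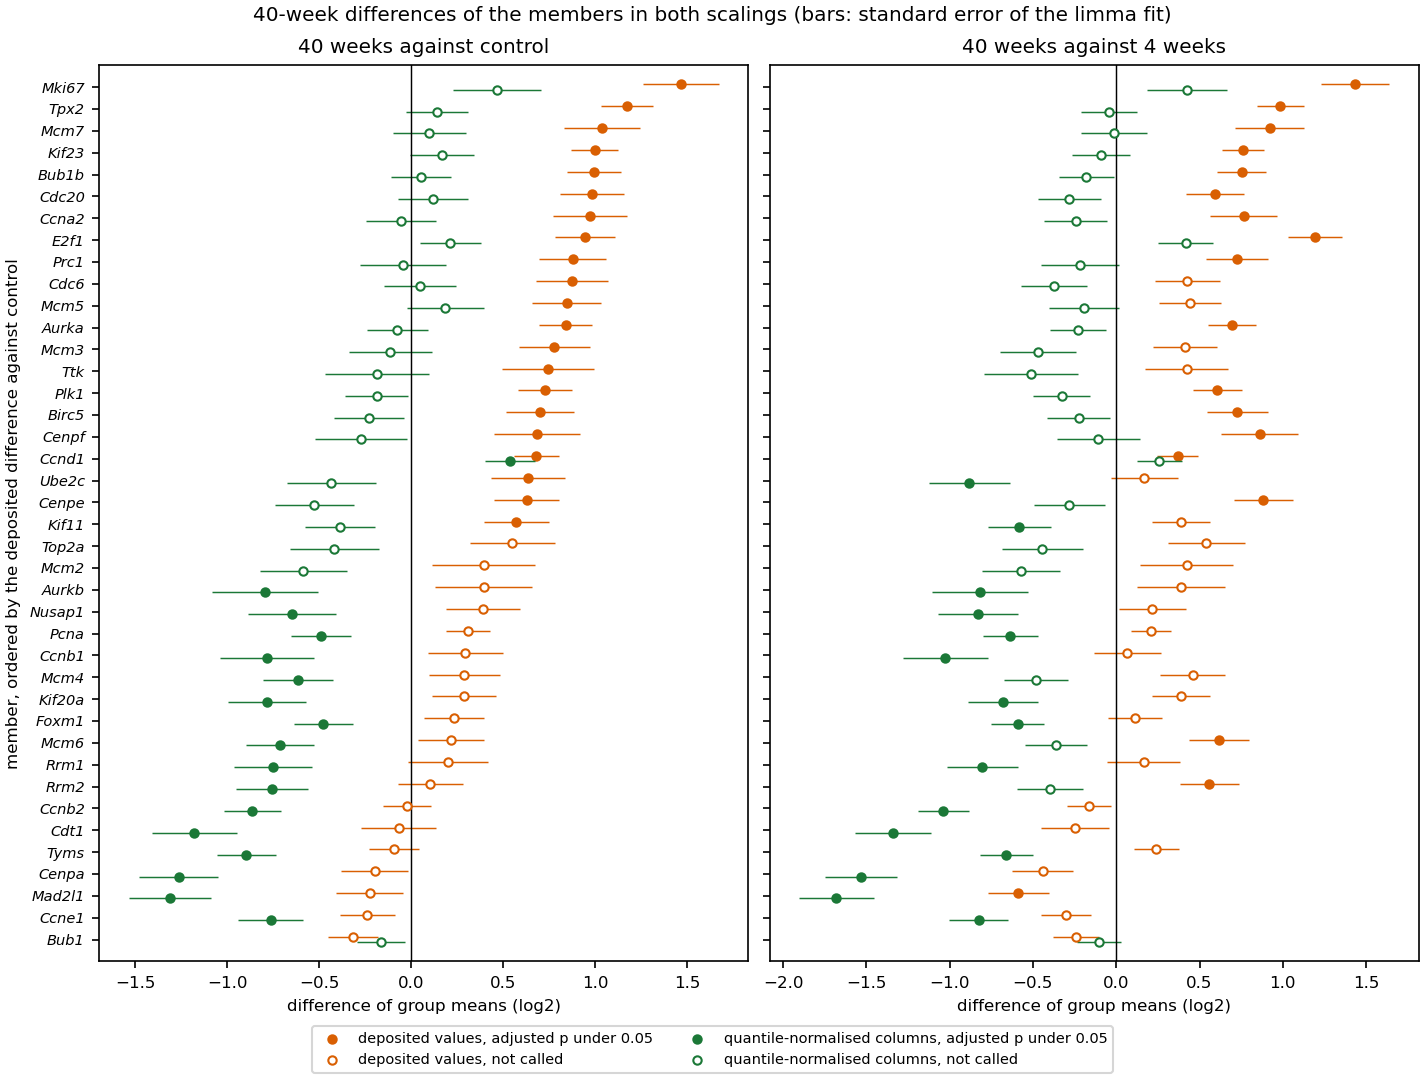
Difference of the 40-week group from control (left) and from the 4-week group (right) for each member, as deposited (orange) and after quantile normalisation (green), on a log2 axis; bars are standard errors and filled points have an adjusted p under 0.05. Orange points run from -0.31 for Bub1 to 1.47 for Mki67 on the left, and nearly every green point lies to the left of its orange partner.

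Mki67, Tpx2, Mcm7 and Kif23 had the largest deposited rises. Mki67 stood at -3.28, -3.35, -3.57 and -3.84 in controls and at -1.94, -2.49, -1.72 and -2.02 at 40 weeks. All 40-week arrays lay above all controls, and Mki67 rose by 1.47 ± 0.21 (SE) (limma, adjusted p = 0.000187). After quantile normalisation the arrays read -3.06, -3.05, -2.86 and -3.68 and -2.48, -3.07, -2.44 and -2.80. These overlap, with a difference of 0.47 ± 0.24 (SE) (adjusted p = 0.142). The second Mki67 probe, whose sequence is given above, differed by 0.67 as deposited and by -0.35 after quantile normalisation. Tpx2, which activates Aurora A on the spindle, stood at -3.07, -3.47, -3.40 and -3.65 in controls and at -2.12, -2.49, -2.12 and -2.17 at 40 weeks. The groups did not overlap, and Tpx2 rose by 1.17 ± 0.14 (SE) (adjusted p = 5.96e-05), while the quantile-normalised difference was 0.14 ± 0.17 (SE) (adjusted p = 0.54). Kif23, a cytokinesis motor, stood at -2.46, -2.46, -2.27 and -2.67 and at -1.41, -1.63, -1.37 and -1.46. It rose without overlap by 0.997 ± 0.13 (SE) (adjusted p = 9.17e-05), and after quantile normalisation the difference was 0.17 ± 0.17 (SE) (adjusted p = 0.481).

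Among replication genes Mcm7, a helicase subunit, had the largest rise. It stood at -2.38, -3.25, -3.16 and -2.996 in controls and at -2.04, -2.18, -1.88 and -1.54 at 40 weeks, without overlap. Mcm7 rose by 1.04 ± 0.21 (SE) as deposited (adjusted p = 0.00201) and differed by 0.10 ± 0.20 (SE) after quantile normalisation (adjusted p = 0.719). E2f1 stood at -1.71, -2.41, -2.31 and -2.06 and at -1.24, -1.35, -1.18 and -0.96. Every 40-week array was above every control, and the rise was 0.94 ± 0.16 (SE) (adjusted p = 0.000815). The second E2f1 probe did not show this rise, with means of -2.32 in controls and at 40 weeks as deposited and a difference of -0.97 after quantile normalisation. For the first probe quantile normalisation left 0.21 ± 0.17 (SE) (adjusted p = 0.33). The other helicase subunits were divided: Mcm3 and Mcm5 were called higher as deposited, Mcm4 and Mcm6 lower after quantile normalisation, and Mcm2 in neither scaling. Mcm2 read -1.62, -3.19, -2.84 and -2.59 and -2.32, -2.41, -2.04 and -1.91, with control replicate 1 above all 40-week arrays. Its difference was 0.39 ± 0.28 (SE) (adjusted p = 0.278), and 0.71 without that array, which was then called.

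Ccnd1 rose at 40 weeks in both scalings. It stood at -0.78, -0.61, -0.78 and -0.89 in the controls and at -0.12, -0.18, -0.23 and 0.19 at 40 weeks as deposited. The groups did not overlap, and the rise was 0.68 ± 0.12 (SE) (limma, adjusted p = 0.00114). After quantile normalisation the values were -0.70, -0.58, -0.61 and -0.80 and -0.16, -0.26, -0.35 and 0.24, again without overlap, and the rise was 0.54 ± 0.14 (SE) (adjusted p = 0.00862). It was called in each of the 8 fits that left out 1 array, in either scaling. Without control replicates 3 and 4 and 4-week replicate 2 the quantile-normalised fit called 0 members higher.

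Other landmarks stood between these ends. Top2a read -2.21, -2.89, -2.80 and -2.86 in controls and -2.07, -2.57, -1.95 and -1.96 at 40 weeks. Control replicate 1 and 40-week replicate 2 made the groups overlap, and the difference was 0.55 ± 0.23 (SE) (adjusted p = 0.0738); without either it was 0.71 or 0.70 and called. After quantile normalisation it was -0.42 ± 0.24 (SE) (adjusted p = 0.19). Ccnb1 read -3.33, -2.87, -2.53 and -2.94 and -2.50, -3.04, -2.28 and -2.68, overlapping, with 0.29 ± 0.20 (SE) as deposited (adjusted p = 0.266). Quantile normalisation turned it to -0.79 ± 0.26 (SE) (limma, adjusted p = 0.0293). That fall passed the test but was called in 4 of the 8 fits that left out 1 array. Pcna read -2.14, -2.11, -1.70 and -1.88 and -1.60, -1.78, -1.58 and -1.63, with 0.31 ± 0.12 (SE) as deposited (adjusted p = 0.0539). Pcna too turned, to -0.49 ± 0.16 (SE) (limma, adjusted p = 0.032), and was called lower in 3 of the 8 fits that left out 1 array.

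The largest quantile-normalised falls, named after their values were seen, were in Mad2l1, Cenpa and Cdt1. Mad2l1, a spindle checkpoint protein, went from -2.69, -2.50, -1.81 and -2.16 in controls to -3.25, -3.90, -3.52 and -3.73 at 40 weeks. The groups did not overlap and the fall was -1.31 ± 0.22 (SE) (adjusted p = 0.000953), against -0.23 ± 0.18 (SE) as deposited (adjusted p = 0.341). Cenpa, the centromeric histone H3 variant, went from -2.73, -2.35, -1.73 and -2.14 to -3.33, -3.73, -3.37 and -3.57, a fall of -1.26 ± 0.22 (SE) (adjusted p = 0.000954), against -0.20 ± 0.18 (SE) as deposited (adjusted p = 0.405). Cdt1, the licensing partner of Cdc6, went from -2.31, -2.87, -1.99 and -2.56 to -3.59, -3.81, -3.70 and -3.35. That fall was -1.18 ± 0.23 (SE) (adjusted p = 0.00207), against -0.07 ± 0.20 (SE) as deposited (adjusted p = 0.808). For the 16 members called lower the deposited differences ran from -0.24 to 0.39.

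Because the deposited 40-week ratios were less spread as a whole, members were set beside genes whose mean ratio in the 4-week group, which this comparison does not use, was alike. As deposited, 888 genes with ratios between -3 and -2 had a median 40-week difference from control of 0.93, and 61.4% of them were called higher. The 28 members in that range had a median of 0.60. Between -4 and -3, 236 genes had a median of 1.04 and the 4 members there had 0.90. At the other end, 740 genes with ratios above 4 had a median of -2.15. As deposited, 5 replication genes lay above and 10 below the median of their range, as did 6 and 19 mitosis genes. After quantile normalisation 3 and 12 replication genes and 3 and 22 mitosis genes did, with median distances of -0.71 and -0.40. Most members thus lay below the median of genes of like ratio in both scalings, a description with no test of its own.

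**Figure D5:**
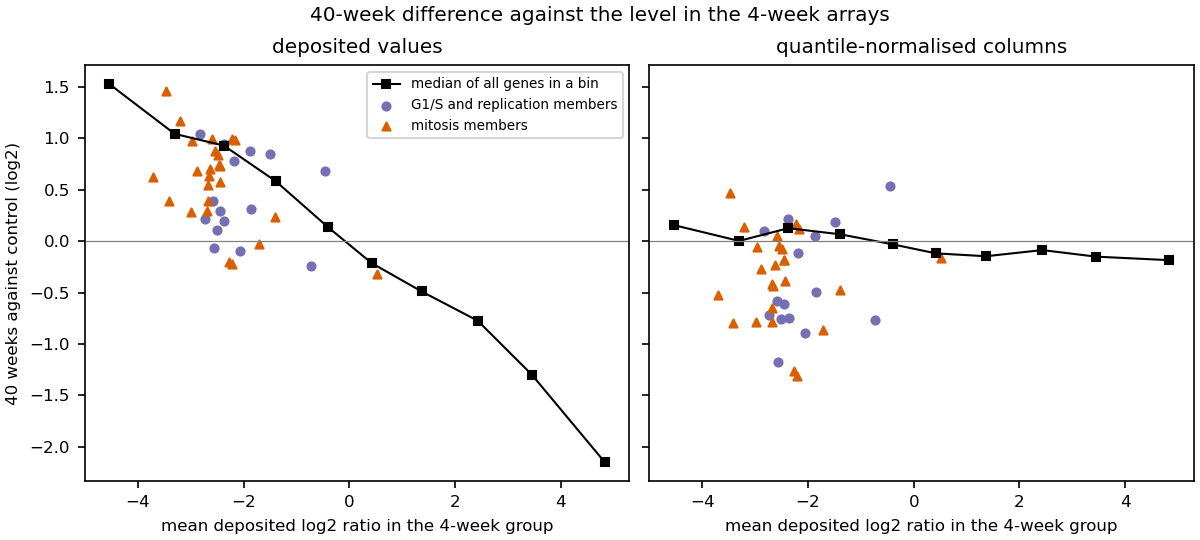
Difference of the 40-week group from control (y axis, log2) against the mean deposited ratio in the 4-week group (x axis, log2), as deposited (left) and after quantile normalisation (right); black squares are medians of all genes in bins of the x axis, circles and triangles the members. The black line falls from 1.53 at the lowest ratios to -2.15 at the highest on the left and stays near 0 on the right, and most members lie under it in both panels.

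Array by array, 40-week replicate 2 was the lowest of its group in 36 of 40 members as deposited, and replicates 3 and 4 were the highest in 21 and 18. Replicates 3 and 4 are also those with low Y-linked and high Xist ratios. Without both, 13 members were called higher against control as deposited, where 9.91% of all genes were, and 10 lower after quantile normalisation, where 13% were. Control replicate 1 was the highest control in 24 members. Leaving out 1 array at a time gave 17 to 23 members higher and 0 or 1 lower as deposited, where 15.1% to 19.3% of all genes were higher. It gave 10 to 15 lower after quantile normalisation, where 16% to 20.8% of all genes were lower, with 10 reached without control replicate 3 and without 40-week replicate 2. Of the deposited calls, Cenpf held in 2 of 8 such fits, Kif11 and Ube2c in 3 and Ttk in 4. Of the quantile-normalised calls, Nusap1 and Foxm1 held in 2, Pcna and Aurkb in 3 and Ccnb1 and Mcm4 in 4. Without the 3 arrays high in genes of other organs the numbers were 18 higher as deposited and 8 lower after quantile normalisation, where 15.9% and 14.1% of all genes were.

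Markers of cell types of the wall and of other organs were counted in the same fits. Of 11 basal keratinocyte genes, 0 were called higher and 6 lower at 40 weeks as deposited, with per-array medians of 2.99 to 3.79 in controls and 2.19 to 2.47 at 40 weeks. After quantile normalisation 3 were called higher and 1 lower, with medians of 2.72 to 3.31 and 2.84 to 3.03. Of 12 suprabasal genes 12 were called lower as deposited and 7 after quantile normalisation. Of 11 lymphocyte genes 2 were called higher as deposited, and 1 higher and 1 lower after quantile normalisation, with medians of -3.22 to -1.90 in controls and -2.15 to -0.86 at 40 weeks as deposited. Of 8 smooth muscle genes 8 were called lower as deposited, and 1 higher and 2 lower after quantile normalisation. Of 12 glandular stomach and 10 pancreatic and intestinal genes 1 and 2 were called lower in both scalings, 2 glandular genes were called higher after quantile normalisation, and per-array deposited medians at 40 weeks were 1.00 to 1.57 and 0.32 to 0.54. Of 8 adipocyte genes 2 were called lower as deposited and 1 after quantile normalisation. At 4 weeks as deposited, where no member was called, 10 of 12 suprabasal, 6 of 8 smooth muscle, 2 of 11 basal and 2 of 8 adipocyte genes were lower, and after quantile normalisation 2, 1, 1 and 0. Against 4 weeks, beside the 17 members called higher as deposited, 5 of 11 lymphocyte genes were higher and 10 suprabasal, 6 basal, 5 smooth muscle and 1 adipocyte genes lower. After quantile normalisation 1 lymphocyte gene was higher, 3 suprabasal genes were higher and 4 lower, 3 basal genes higher and 1 lower, 3 smooth muscle genes higher and 1 lower, and 1 adipocyte gene lower. The part of these cell types in the members' differences was not tested.

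The alcohol groups were also set against each other, which leaves the controls out. As deposited, 17 of 40 members were higher at 40 weeks than at 4 weeks and 1 was lower, where 41.6% of all genes were called, 18.5% higher and 23.1% lower; the median difference was 0.42. After quantile normalisation 0 were higher and 15 lower, where 40.2% were called, 18% higher and 22.2% lower, and the median was -0.42. All 40-week arrays lay above all 4-week arrays for 18 members and below for 1 as deposited, where 20.1% and 25.2% of all genes did so, and for 1 and 15 after quantile normalisation, where 18.5% and 22% did so. The differences of 31 members changed sign between the scalings, a count that was again not made over all genes. This comparison shares its 40-week arrays with the one against control, so its values are given beside those and not as a repeat of them. Without 40-week replicates 3 and 4 the calls were 7 higher as deposited and 8 lower after quantile normalisation, where 9.72% and 13.9% of all genes were.

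Mki67 again had the largest deposited rise. The 4-week arrays read -3.86, -3.63, -3.21 and -3.20, all below the 40-week arrays given above, and the rise was 1.43 ± 0.21 (SE) (limma, adjusted p = 0.000318). After quantile normalisation the difference was 0.42 ± 0.24 (SE) (adjusted p = 0.176). E2f1 read -2.17, -2.44, -2.33 and -2.56 at 4 weeks and -1.24, -1.35, -1.18 and -0.96 at 40 weeks, a rise of 1.19 ± 0.16 (SE) (adjusted p = 0.000234), while its second probe had means of -2.18 and -2.32. It was the 1 member whose 40-week arrays lay wholly above the 4-week arrays in the quantile-normalised values as well, with a difference of 0.42 ± 0.17 (SE) that missed the threshold (adjusted p = 0.0617). Tpx2 read -3.33, -3.13, -3.24 and -3.14 at 4 weeks and rose by 0.99 ± 0.14 (SE) (adjusted p = 0.000309). Mcm7 read -3.10, -2.90, -2.77 and -2.56 and rose by 0.92 ± 0.21 (SE) (adjusted p = 0.00423). After quantile normalisation both stood near no difference, at -0.05 ± 0.17 (SE) and -0.01 ± 0.20 (SE) (adjusted p = 0.852 and 0.962).

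Mad2l1 was the only member called lower than at 4 weeks in both scalings, and such calls were not counted over all genes here. It stood at -2.59, -2.02, -2.21 and -2.05 on the 4-week arrays and at -2.62, -3.20, -2.61 and -2.79 on the 40-week arrays as deposited. The groups did not overlap, and Mad2l1 fell by 0.59 ± 0.18 (SE) (limma, adjusted p = 0.0229). After quantile normalisation the fall was -1.68 ± 0.22 (SE) (adjusted p = 0.000213). The deposited call was lost without 4-week replicate 2, without 4-week replicate 4 or without 40-week replicate 2, where the difference was -0.52, -0.53 and -0.46. The second Mad2l1 probe had means of -2.56 at 4 weeks and -2.79 at 40 weeks. With the mean of both probes the difference was -0.41 and not called.

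The landmarks split in this comparison. Ccnd1 was 0.37 ± 0.12 (SE) higher than at 4 weeks as deposited (adjusted p = 0.0323), with every 40-week array above every 4-week array, and 0.26 ± 0.14 (SE) after quantile normalisation (adjusted p = 0.148). The deposited call held in 3 of 8 fits that left out 1 array, and it was lost without 4-week replicate 2, 3 or 4 and without 40-week replicate 1 or 4, at differences of 0.28 to 0.39. With the replicate number as a block it was lost too (adjusted p = 0.0633). As deposited, Ccnd1 stood in 3 separate bands, lowest in controls and highest at 40 weeks, of which only the step from control to 40 weeks was called in both scalings. Top2a differed by 0.54 ± 0.23 (SE) (adjusted p = 0.0804) and by -0.44 ± 0.24 (SE) after quantile normalisation (adjusted p = 0.162). Mcm2 differed by 0.42 ± 0.28 (SE) (adjusted p = 0.246) and by -0.57 ± 0.24 (SE) (adjusted p = 0.0713). Neither gene was called. Ccnb1 differed by 0.07 ± 0.20 (SE) as deposited (adjusted p = 0.813) and fell after quantile normalisation, by -1.03 ± 0.26 (SE) (adjusted p = 0.0076). Pcna differed by 0.21 ± 0.12 (SE) (adjusted p = 0.177) and likewise fell after quantile normalisation, by -0.64 ± 0.16 (SE) (adjusted p = 0.00891).

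Where members had further probes, these were compared with the chosen ones. Among 14 members with 17 further kept probes, the sign of the difference from control matched for 8 of 17 probes at 4 weeks, for 13 at 40 weeks as deposited and for 12 at 40 weeks after quantile normalisation. The 3 Ccnb1 probes differed at 40 weeks by 0.29, 0.66 and 0.03 as deposited and by -0.79, -0.35 and -1.09 after quantile normalisation. For Bub1 the first probe differed by -0.31 and the second by 0.81 at 40 weeks as deposited, and by -0.17 and -0.74 after quantile normalisation. The Cenpf probes, of a kinetochore protein, differed by 0.68 and 2.03 as deposited and by -0.27 and 0.99 after quantile normalisation. Among the probes just named, the choice thus set the sign for Bub1 in the first scaling and for Cenpf in the second. It also set the sign for Mki67 and E2f1 after quantile normalisation, by the values of their second probes given above.

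Further cell cycle genes, from lists set up beside the members, were counted in the same fits. At 4 weeks 4 of 30 genes of CDK control were called higher and 2 lower as deposited (median 0.16), against 1 and 0 after quantile normalisation. Of 39 further replication genes 2 were called higher, and of 52 further mitosis genes 1, as deposited. E2f4, a repressor E2F, rose by 0.85 ± 0.13 (SE, limma, adjusted p = 0.00496) and was the gene called in both scalings. Orc5l, an origin recognition subunit, rose by 0.76. Cdkn2d and E2f6 fell by 0.59 and 0.58. Cdkn1a, which encodes the p21 inhibitor of CDKs, rose by 0.60 ± 0.13 (SE, adjusted p = 0.0230) as deposited and differed by 0.56 (adjusted p = 0.0888) after quantile normalisation. Cdk1, the mitotic kinase, and Myc differed by 0.21 and 0.22 and were not called.

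At 40 weeks 15 of 30 CDK control genes were called higher and 3 lower against control as deposited, and 3 and 5 after quantile normalisation. The further replication genes gave 12 higher and 2 lower as deposited, and 0 and 17 after quantile normalisation. For the further mitosis genes it was 25 and 3, then 2 and 17. Ndc80, a kinetochore subunit, rose by 2.80 ± 0.30 (SE, adjusted p = 2.5e-05) as deposited and by 1.97 (adjusted p = 0.00234) after quantile normalisation. Racgap1, a cytokinesis regulator, rose by 1.37 as deposited and differed by 0.44 after quantile normalisation (adjusted p = 0.0676). Cdkn1c, the CDK inhibitor p57, fell by 1.31 as deposited, with -0.05 after quantile normalisation, and Cdc16, a subunit of the anaphase-promoting complex, fell by 0.73 and by 1.11. Cdk1 differed by 0.40 as deposited and fell by 0.57 after quantile normalisation (adjusted p = 0.0594 and 0.0331). Cdkn1a differed by -0.16 and -0.06, with no call. Myc rose by 0.53 as deposited (adjusted p = 0.0275) and differed by 0.09 after quantile normalisation.

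Against 4 weeks, CDK inhibitors were called in both directions. Cdkn1b, the inhibitor p27, rose in both scalings, by 1.23 ± 0.17 (SE, limma, adjusted p = 0.000301) as deposited and by 1.29 ± 0.18 (SE, adjusted p = 0.000284) after quantile normalisation. Cdkn2a, Cdkn2c and Cdkn2d rose by 0.46, 0.73 and 0.56 as deposited, while after quantile normalisation Cdkn2a fell by 0.58 and the others differed by 0.18 and -0.13 without a call. Cdkn1a was lower at 40 weeks in both scalings, by -0.77 ± 0.13 (SE, limma, adjusted p = 0.000936) as deposited and by -0.61 ± 0.15 (SE, adjusted p = 0.0068) after quantile normalisation. Cdkn1c was lower by -1.02 as deposited, with -0.03 after quantile normalisation. Ndc80 rose by 2.51 and 1.70 in the scalings, and Cdc7, the kinase that fires origins, by 1.39 as deposited, with 0.45 after quantile normalisation (not called). In this comparison 13 of 30 CDK control genes were called higher and 5 lower as deposited, and 3 and 9 after quantile normalisation. Further replication genes gave 12 and 2, then 0 and 21, and further mitosis genes 24 and 1, then 2 and 22. Cdk1 differed by 0.19 as deposited and fell by 0.79 after quantile normalisation, and Myc differed by 0.31 and -0.12 without a call.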

How the data were processed

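RNA of 12 forestomach samples was measured on 2-colour Agilent arrays. As deposited, the value table gives Cy5 over Cy3 as log2 values for 41174 probes on 12 arrays. Their scaling is not given in the sources used here. The 40-week columns could not be set against scanner files, which were used for 8 arrays. Scanner signals are intensity values, mean spot and median local background, per the file headers. Processed signals, also intensity, and their log10 ratios are given per the file headers, together with other values, the flags for background, saturation and outlier spots, as deposited. The headers name Agilent Feature Extraction 10.7.3.1, and 9.1 stands in the submitters' processing notes.

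The filter kept 30450 probes flagged well above background in Cy5 on 3 or 4 arrays of a group with scanner files, and the brightest stood for each of 20689 genes by the files' gene names. Since 40-week arrays had no part in this filter, a gene present only at 40 weeks was not seen. Limma 3.58.1 (R 4.3.3) was fitted to all 12 samples in 3 groups, and genes were called at a Benjamini-Hochberg adjusted p under 0.05. The same fit was made after quantile normalisation of all probes. For 4 weeks, scanner signals were also fitted after normexp (offset 50) and loess, and each dye alone after quantile normalisation between arrays. The fit was tested on simulated data with independent noise and no narrowing of the 40-week columns, so that test does not bear on the scaling. The number of arrays limits the precision, and since the labels do not say whether replicates came from different animals, the p-values cover only the spread among these arrays, which may be technical.

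Members and lists were chosen with earlier results of these data known. By the rule for named genes, values per sample are given for the 4 largest rises and 4 largest falls called as deposited in a comparison (with none called, the 3 largest differences each way) and for Mki67, Top2a, Ccnb1, Pcna, Mcm2, Ccnd1 and E2f1. Of the further cell cycle genes the 2 largest called each way are named, and Cdkn1a, Cdk1 and Myc. Others were named after their values were seen. Alternatives were other scalings, filters, probe averages, a replicate block and arrays left out. Promoter and probe sequences were read from RefSeq windows (GRCm38.p6) and the scanner files (Python 3.11.15).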

Additional observations from a re-analysis of the deposited data

Results flagged for a closer look

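In 11 of 120 groups of 4 arrays examined (40 members in 3 groups), 1 array stood apart from the other 3 by Dixon's test, and chance marks about 1 in 20 such groups. On 40-week replicate 2 the deposited log2 ratio was low for Aurkb (-3.59, others -2.84 to -2.81), Nusap1 (-3.05, others -2.33 to -2.20), Tpx2 (-2.49, others -2.17 to -2.12), Kif11 (-2.42, others -1.94 to -1.90) and Birc5 (-2.38, others -1.77 to -1.69). All 5 are mitosis genes, and that array was the lowest of its group in 36 of 40 members. On control replicate 1 the ratio was high for Top2a (-2.21, others -2.89 to -2.80) and Kif11 (-2.21, others -2.81 to -2.73). Cdc6 was high on 4-week replicate 2 (-1.26, others -2.12 to -2.02) and on 40-week replicate 4 (-1.30, others -1.51 to -1.49). Aurka was high on 4-week replicate 3 (-2.39, others -2.52 to -2.51), and Aurkb was low on 4-week replicate 1 (-3.73, others -3.35 to -3.28).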

How the results depend on the processing

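The 40-week calls turned with the scaling. Against control, quantile normalisation gave 1 member higher and 16 lower with a median of -0.40, and equal spread gave 1 and 16 with -0.34, against 21, 0 and 0.60 as deposited. Shares of all genes called are given above for the deposited and quantile-normalised fits. They are not given for equal spread, the mean of kept probes or a replicate block, so those counts stand without a background. Ccnb1 and Pcna reversed to -0.79 and -0.49, or to -0.81 and -0.40. Against 4 weeks, quantile normalisation gave 0 higher and 15 lower with a median of -0.42, and equal spread gave 2 and 13 with -0.24. There Tpx2 and Mcm7 went to -0.045 and -0.014 under quantile normalisation, within 1 standard error of 0, and Ccnb1 and Pcna reversed to -1.03 and -0.64, or with equal spread to -0.90 and -0.42. Both settings widen the 40-week columns, which are narrower as deposited. The mean of kept probes gave 0 lower against 4 weeks.

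Without 40-week replicates 3 and 4 the deposited calls fell to 13 higher against control and 7 against 4 weeks, and the quantile-normalised calls to 10 and 8 lower. Without the 3 arrays high in genes of other organs the quantile-normalised fit gave 0 higher and 8 lower against control. Leaving out 1 array each gave 0 or 1 lower against control as deposited, where 19.7% to 25.3% of all genes were lower. Against 4 weeks it gave 0 to 2 lower, where 18.7% to 21.9% of all genes were. It gave 10 to 15 lower against control after quantile normalisation. At 4 weeks, calls stayed at 0 in every setting but the Cy3 channel alone, which gave 1 higher, 2 lower and a median of -0.11. The cause was not tested for these.

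With a replicate block, the deposited calls were 21 higher against control and 16 higher and 1 lower against 4 weeks; Ccnd1 lost its call against 4 weeks, at 0.37. Same-numbered arrays were not paired, since the labels give the replicate numbers no meaning beyond counting samples. Correlations of the deviations of same-numbered arrays from the group means ran from -0.43 to 0.41, which cannot show whether arrays were paired. The block changed no other call of a named member.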
